A study of Homo sapiens with 10 samples.

Results

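Heat shock chaperones and targets of the heat shock factor HSF1 were followed in WM164 cells, an established human melanoma line. The set holds 10 genes, HSPA6, HSPA1A, HSPA1B, DNAJB1, DNAJA4, HSPH1, HSPA4L, BAG3, HSPA8 and HSP90AA1, taken by gene name from the 54826 entries of the expression table. All 10 had an entry, and all 10 reached the mean of 0.5 FPKM that was required for a test, as did 14689 entries in all. FPKM are fragments scaled by transcript length and library size, so levels can be compared between genes per length.

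The cells were grown with charcoal-treated serum and exposed for 24 h to 0.1% ethanol as the vehicle or to 100 nM of a vitamin D compound. The compounds were the 1α-hydroxylated 1,25(OH)2D3 and 1,20(OH)2D3, and their counterparts without that hydroxyl, 25(OH)D3 and 20(OH)D3. These 5 treatments were given to cells labelled as a VDR knockout, here VDR-KD, and to cells labelled VDR wild type after infection with a scrambled construct, here VDR-WT. Each of the 10 conditions had 1 library, so no condition had a replicate, and each genotype is 1 population of infected cells as far as the labels say. The p-values below rest on how the 10 libraries scatter around an additive fit, and this scatter may be technical.

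The transcript of the targeted gene went against the labels. VDR was at 12.0 to 14.8 FPKM in the 5 libraries labelled VDR-KD and at 5.54 to 9.63 FPKM in the 5 libraries labelled VDR-WT. Whether labels were exchanged was not tested, and every direction between genotypes below follows the labels alone. The libraries were alike in their technical values. The sum of FPKM was between 577696 and 651658, mitochondrial entries took 6.57% to 9.43% of it, and the median log2 shift between libraries stayed within -0.011 to 0.012. From low values that fall on whole steps in 178 entries (relative tolerance 0.05), the depth was estimated at a median of 9750000 fragments per library (quartiles 9570000 and 9990000), with a ratio of 1.08 between the deepest and the shallowest. The 7 melanocytic markers summed to 5757 to 8389 FPKM under the VDR-KD label and to 6339 to 9321 FPKM under the VDR-WT label. The 3 keratinocyte markers summed to at most 0.0428 FPKM, with KRT5 and KRT14 at 0 in all libraries. Of the 3 leukocyte markers, PTPRC was at most 0.0505 FPKM, CD3E was at 0 in all libraries and LYZ was at 1.46 to 3.92 FPKM, and the 3 endothelial markers summed to at most 0.792 FPKM. Of the 3 fibroblast markers, LUM was at 70.8 to 130 FPKM, DCN at 1.27 to 5.55 FPKM and COL1A1 at no more than 1.24 FPKM. In bulk RNA, fewer cells of a kind and less RNA per cell cannot be told apart.

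Cells answer protein damage by the heat shock response, in which HSF1 forms trimers, binds DNA at inverted repeats of GAA called heat shock elements, and drives the genes of inducible HSP70 proteins. HSP70 holds unfolded segments of client proteins in a cycle of ATP binding and hydrolysis. J-domain proteins such as DNAJB1 and DNAJA4 bring clients and start hydrolysis, while nucleotide exchange factors such as HSPH1, HSPA4L and BAG3 release them. HSPA8 is the constitutive HSP70 of the cytosol and HSP90AA1 a form of HSP90, which matures kinases and receptors. Melanoma cells, like other tumor cells, are known to keep high levels of HSP70 and HSP90.

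To show what the members carry at their starts, RefSeq promoter windows of GRCh38.p14 were searched for a pair of facing or opposed GAA units, spelled GAANNTTC and TTCNNGAA. Both patterns read the same on the other strand and can overlap each other, in which case they form 3 units in a row. In the 250 bases before the start, GAANNTTC occurred in 5.78% and TTCNNGAA in 6.62% of 35116 windows, either of them in 11.6%, and 3 units in a row in 0.441%. All 10 genes matched, with 17 windows between them, of which 8 windows from 8 genes held at least 1 pair and 3 windows, those of HSPA6, HSPA8 and HSP90AA1, held 3 units in a row. In the stretches printed here, all from 5′ to 3′ on the gene's own strand, capitals mark the matches.
HSPA6 (chr1:161524446-161524498, plus strand): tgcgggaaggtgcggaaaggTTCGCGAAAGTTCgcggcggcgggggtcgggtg
HSPA1A (chr6:31815426-31815455, plus strand): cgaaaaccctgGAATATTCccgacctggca
HSPA1B (chr6:31827613-31827660, plus strand): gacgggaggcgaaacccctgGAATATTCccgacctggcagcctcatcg
DNAJB1 (chr19:14518426-14518455, minus strand): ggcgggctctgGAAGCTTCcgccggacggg
DNAJA4 (chr15:78264451-78264537, plus strand): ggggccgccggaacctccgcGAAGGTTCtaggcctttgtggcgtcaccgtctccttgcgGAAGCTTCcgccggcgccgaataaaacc
HSPA8 (chr11:123062171-123062199, minus strand): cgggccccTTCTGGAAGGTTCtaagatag
HSP90AA1 (chr14:102087112-102087140, minus strand): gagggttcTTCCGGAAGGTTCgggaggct
The same pair stood before HSPA1A and HSPA1B, whose upstream sequences were identical at 235 of 249 aligned bases. HSPA4L held 1 pair in 1 of its 3 windows, and the windows of HSPH1 and BAG3 held none, which says only that these letters are not in those 250 bases. Windows with 3 units in a row thus belonged to HSPA6, HSPA8 and HSP90AA1, while HSPA1A and HSPA1B held 1 pair each. The printed stretches of DNAJB1, DNAJA4, HSPA8 and HSP90AA1 lie within the spans of their genes given below, so they precede a start inside the gene. Those of HSPA8 and HSP90AA1 also overlap an annotated exon. A match in a window is no measured binding site.

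The 3 inducible HSP70 genes had the widest ranges of the 10 genes, ahead of DNAJA4, and were low in the same 4 libraries. HSPA6 (chr1:161524540-161526910 in GENCODE 29) encodes a strictly stress-inducible HSP70. In the libraries labelled VDR-KD it was at 32.3 FPKM with ethanol, 0.720 with 1,25(OH)2D3, 0.468 with 1,20(OH)2D3, 44.5 with 25(OH)D3 and 31.6 with 20(OH)D3. In those labelled VDR-WT it was at 9.37 FPKM with ethanol, 0.176 with 1,25(OH)2D3, 6.71 with 1,20(OH)2D3, 15.7 with 25(OH)D3 and 0.655 with 20(OH)D3. Thus 4 libraries lay below 1 FPKM and 6 at 6.71 FPKM or above, with none between, and each label held libraries of both kinds. By the depth estimated above, the lowest of these values rests on about 4 fragments and the other 3 low values on about 11, 15 and 17, while the highest rests on about 1072. The entry of HSPA6 spans 100 kb where the gene spans 2.37 kb, and a near-identical pseudogene, HSPA7, lies nearby, so reads may be shared within it.

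HSPA1A and HSPA1B are neighbouring copies of the main inducible HSP70 on chromosome 6 (chr6:31815464-31817946 and chr6:31827735-31830255). Their coding sequences are nearly identical, so the split of reads between them is uncertain. HSPA1A was at 123, 9.57, 16.6, 165 and 123 FPKM under the VDR-KD label, the treatments standing in the order used for HSPA6. Under the VDR-WT label it was at 42.1, 6.65, 28.7, 71.1 and 11.2 FPKM in the same order. The same 4 libraries that were lowest for HSPA6 were lowest for HSPA1A, none of them above 16.6 FPKM, and the other 6 lay at 28.7 FPKM or above. HSPA1B was at 110, 9.0, 12.6, 159 and 107 FPKM under the VDR-KD label and at 43.4, 5.81, 25.6, 52.7 and 7.03 FPKM under the VDR-WT label. It followed HSPA1A closely, with a ratio of HSPA1A to HSPA1B between 0.971 and 1.59.

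**Figure D1:**
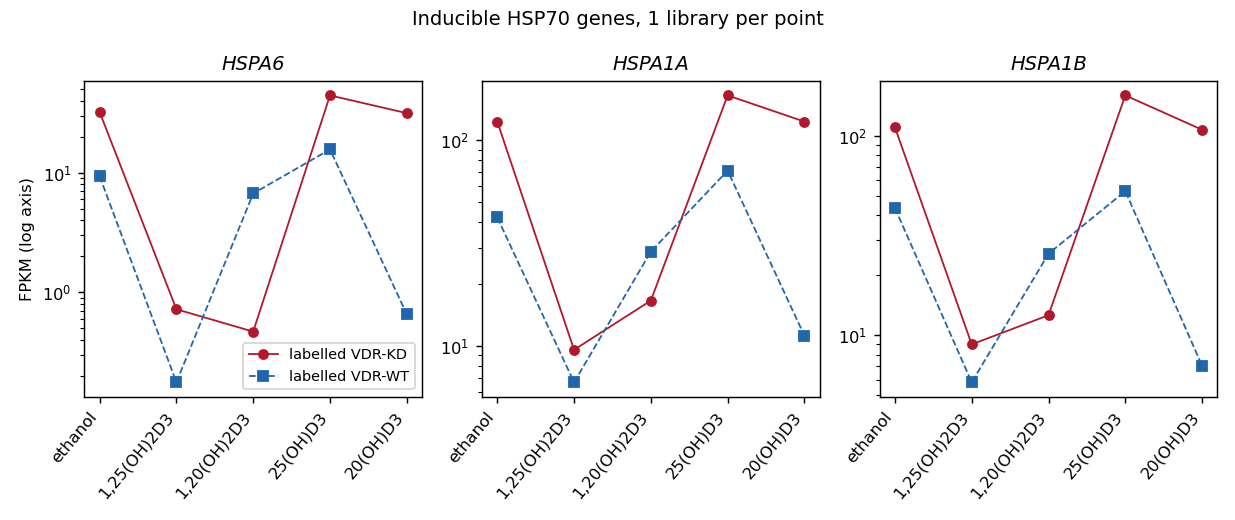
Level of HSPA6, HSPA1A and HSPA1B in FPKM on a log axis for each treatment, 1 library per point, red circles for the VDR-KD label and blue squares for the VDR-WT label. Both curves are low at 1,25(OH)2D3, only the red one is low at 1,20(OH)2D3 (0.468 against 6.71 FPKM for HSPA6) and only the blue one at 20(OH)D3 (0.655 against 31.6 FPKM).

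The highest value was 253 times the lowest for HSPA6, 24.8 times for HSPA1A and 27.4 times for HSPA1B. On the log2 scale of FPKM plus 0.1 this is a range of 7.34, 4.61 and 4.75, where the median over all tested entries was 0.78. HSPA6 ranked 38 of the 9521 entries with a mean of at least 5 FPKM by this range, HSPA1B ranked 49 and HSPA1A ranked 50. The share of the inducible genes among the cytosolic HSP70 transcripts moved with them. The 3 inducible genes together made up 18.7% of the summed FPKM of HSPA6, HSPA1A, HSPA1B and HSPA8 in the VDR-KD library with 25(OH)D3 and 16.0% in that with ethanol. They made up 0.78% in the VDR-WT library with 1,25(OH)2D3 and 1.03% in the VDR-KD library with it.

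Within each label, the libraries with a compound were set against the library with ethanol. These are single libraries, so a ratio has no error and a call means a change over 2-fold on the log2 scale of FPKM plus 0.1, among entries that reach 1 FPKM in either library. With 1,25(OH)2D3 in the VDR-KD library, HSPA6 was 44.9-fold lower than with ethanol, HSPA1A 12.9-fold lower and HSPA1B 12.2-fold lower. These were 3 of the 10 members, where 4.9% of all entries were over 2-fold lower. Under the VDR-WT label the same compound gave values 53.2-fold, 6.34-fold and 7.47-fold lower, again 3 of 10 members against a background of 4.12%.

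The other 2 low libraries came from a different compound under each label. With 1,20(OH)2D3 the 3 inducible genes were 69.0-fold, 7.43-fold and 8.72-fold lower under the VDR-KD label (3 of 10 members, background 4.44%) and 1.40-fold, 1.47-fold and 1.69-fold lower under the VDR-WT label (0 of 10, background 3.94%). With 20(OH)D3 they differed from ethanol by log2 ratios of -0.03, 0.01 and -0.04 under the VDR-KD label (0 of 10, background 4.24%), but were over 2-fold lower under the VDR-WT label (3 of 10, background 4.66%), where HSPA6 was at 0.655 against 9.37 FPKM. With 25(OH)D3 none of the 10 was over 2-fold lower under the VDR-KD label (background 3.88%) or the VDR-WT label (background 3.52%), and the 3 inducible genes were higher than with ethanol in both, by log2 ratios of 0.46, 0.42 and 0.53 under the VDR-KD label. No member was over 2-fold higher than with ethanol in any of the 8 ratios, where 2.44% to 3.9% of all entries were. The responses to 1,20(OH)2D3 and to 20(OH)D3 thus differed between the labels in these libraries, and with 1 library per condition that difference could not be tested.

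**Figure D2:**
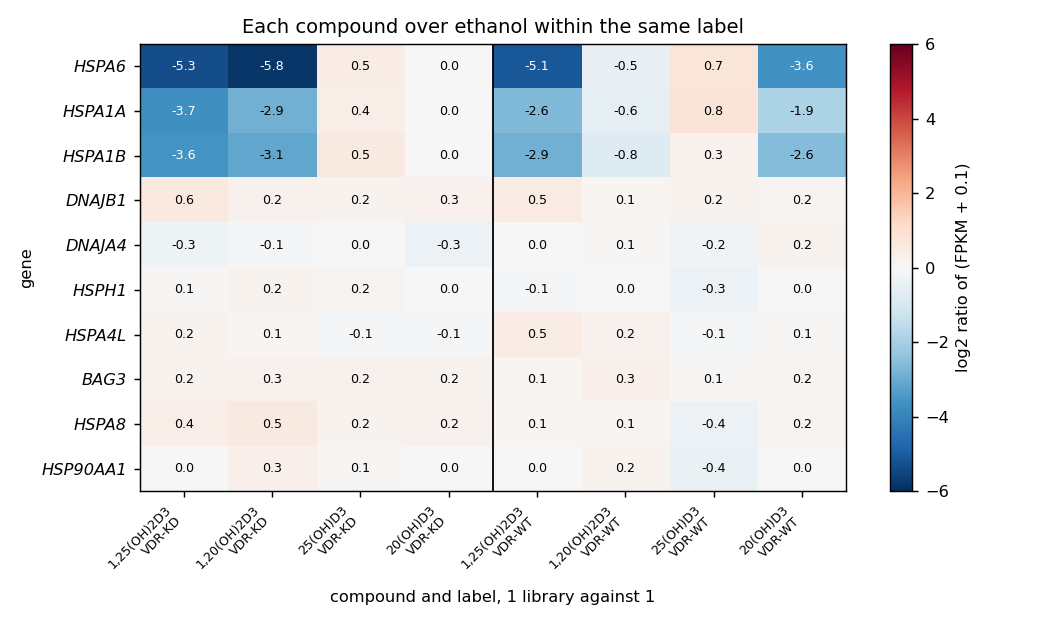
Log2 ratio of FPKM plus 0.1 of each compound over ethanol for the 10 genes (rows) in the 4 contrasts under the VDR-KD label (left of the line) and under the VDR-WT label (right of it), 1 library against 1; blue is lower and red higher. The 3 inducible genes are over 2-fold lower in 4 of the 8 columns, down to -5.83, and the other 7 genes stay within 2-fold throughout.

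Within a label, none of the other 7 genes varied by more than 1.52-fold. DNAJB1 (chr19:14514770-14529770), the main J-domain partner of inducible HSP70, was at 94.7, 141, 113, 111 and 114 FPKM under the VDR-KD label, in the order given above. Under the VDR-WT label it was at 73.7, 103, 80.3, 84.7 and 82.5 FPKM. Its level was lowest with ethanol and highest with 1,25(OH)2D3 under both labels, and at each treatment it was higher under the VDR-KD label. DNAJA4 (chr15:78264086-78282196), another J-domain protein, was at 14.3, 11.5, 13, 14.3 and 11.3 FPKM under the VDR-KD label. Under the VDR-WT label it was at 0.939, 0.936, 0.986, 0.807 and 1.11 FPKM. The labels did not overlap for DNAJA4, and its spread within a label, at most 1.37-fold, was small beside the gap. The share of all tested entries without overlap between the labels was not counted, here or for the genes below.

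The 3 nucleotide exchange genes behaved differently from each other. HSPH1 (chr13:31134974-31162388), an HSP110 that also disentangles aggregates with HSP70, was at 84.8, 89.3, 99.2, 96.2 and 87.3 FPKM under the VDR-KD label and at 72.8, 66.9, 73.3, 57.7 and 72.2 FPKM under the VDR-WT label. HSPA4L (chr4:127781821-127840733), an HSP110 relative, was at 11.7, 13.8, 12.7, 10.9 and 11.2 FPKM under the VDR-KD label and at 6.13, 8.39, 7.24, 5.82 and 6.42 FPKM under the VDR-WT label. Neither gene overlapped between the labels, for which no share over all tested entries was counted, and HSPA4L was highest with 1,25(OH)2D3 under both. BAG3 (chr10:119651370-119677819), which links HSP70 to autophagy, was at 18.6 to 22.4 FPKM under the VDR-KD label and at 18.9 to 23.1 FPKM under the VDR-WT label. It was the steadiest of the 10 genes, with a log2 range of 0.31, and its labels overlapped.

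HSPA8 (chr11:123057489-123063230) and HSP90AA1 (chr14:102080738-102139699) were the most abundant members. HSPA8 was at 1399, 1857, 2039, 1599 and 1646 FPKM under the VDR-KD label and at 1477, 1608, 1586, 1149 and 1670 FPKM under the VDR-WT label. Its entry also holds the small nucleolar RNAs SNORD14C and SNORD14D, whose reads are part of its value. HSP90AA1, whose entry spans 224 kb where the gene spans 59.0 kb, was at 883, 902, 1086, 931 and 894 FPKM under the VDR-KD label and at 881, 874, 1016, 669 and 878 FPKM under the VDR-WT label. Both overlapped between the labels, and both had their lowest value in the VDR-WT library with 25(OH)D3, the library of that label in which HSPA6, HSPA1A and HSPA1B were highest.

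**Figure D3:**
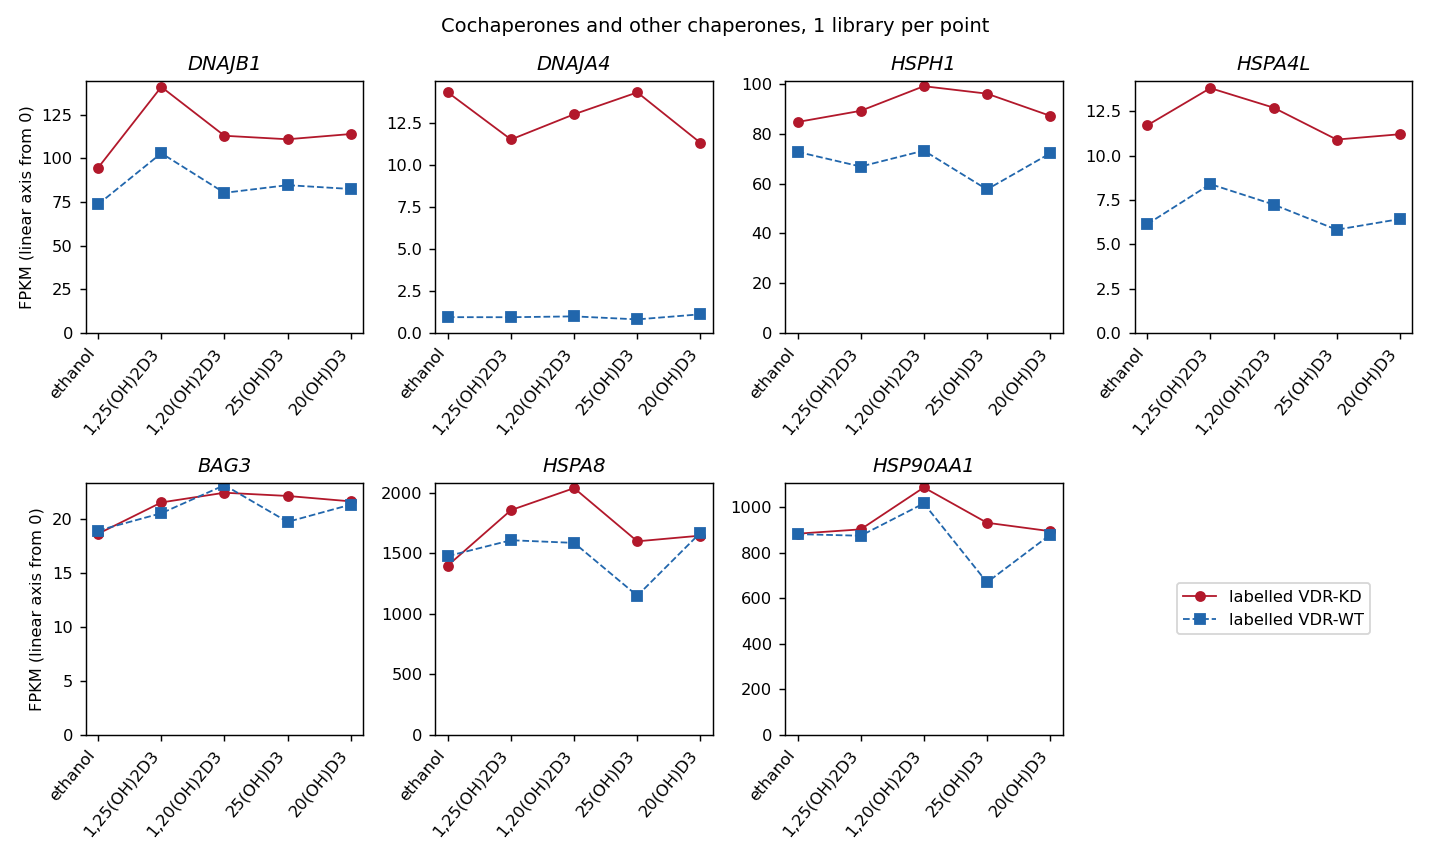
Level of the other 7 genes in FPKM on linear axes from 0, by treatment, 1 library per point, red circles for the VDR-KD label and blue squares for the VDR-WT label. The ranges of the labels do not overlap for DNAJA4 (11.3 to 14.3 against 0.807 to 1.11 FPKM), HSPH1 and HSPA4L. How common this is among all tested entries was not counted. They overlap for DNAJB1, BAG3, HSPA8 and HSP90AA1, although DNAJB1 and HSP90AA1 are higher under the VDR-KD label at each treatment.

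The libraries labelled VDR-KD were then tested against those labelled VDR-WT over the 5 treatments, with limma on log2 of FPKM plus 0.1, treatment as a block and Benjamini-Hochberg adjustment over all tested entries. The threshold was an adjusted p of 0.05. Of the 10 members 4 were higher under the VDR-KD label and 0 were lower, where 13.1% of all tested entries were higher and 9.68% lower. Before adjustment 7 members were past a limma p of 0.05, against 36.5% of all tested entries. The median log2 fold change was 0.63 over the members and 0.016 over all tested entries. The members had been chosen with results of these libraries known, and the labels went against VDR as described above. Some of the cell type markers differed between the labels in the same fit. Of the 7 melanocytic markers TYR (log2 fold change -0.49), PMEL (-0.25) and MITF (-0.16) were lower and none was higher, of the 3 fibroblast markers LUM was higher (0.35) and DCN lower (-1.20), and LYZ was higher (0.71), the leukocyte marker that could be tested. Their part in the differences of the chaperones was not tested.

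DNAJA4 had the smallest p of all 14689 tested entries. The SD of a label, here and below, is the spread over its 5 treatments with 1 library each, not a replicate error. Its level was 12.9 ± 1.46 FPKM (SD, n = 5) under the VDR-KD label and 0.955 ± 0.108 FPKM (SD, n = 5) under the VDR-WT label, a log2 fold change of 3.62 (SE 0.14, limma adjusted p = 1.82e-05). HSPA4L was at 12.0 ± 1.17 against 6.80 ± 1.04 FPKM (SD, n = 5 each), a log2 fold change of 0.82 (limma adjusted p = 0.000373). DNAJB1 was at 115 ± 16.8 against 84.9 ± 11 FPKM (SD, n = 5 each), a log2 fold change of 0.43 (limma adjusted p = 0.000582). HSPH1 was at 91.4 ± 6.10 against 68.6 ± 6.59 FPKM (SD, n = 5 each), a log2 fold change of 0.42 (limma adjusted p = 0.00611). These 4 genes kept their direction and their call in all 18 alternative fits. The size of the DNAJA4 change depended on the added constant, since its VDR-WT values were low. It was 2.82 with 1 added and 3.74 with 0.01 added. The entries of DNAJA4 and DNAJB1 span 49.4 and 51.2 kb where the genes span 18.1 and 15.0 kb, so other reads may be part of their values.

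The inducible HSP70 genes did not pass this test. HSPA6 was at 21.9 ± 20.1 FPKM (SD, n = 5) under the VDR-KD label and at 6.52 ± 6.45 FPKM (SD, n = 5) under the VDR-WT label, a log2 fold change of 1.33 with a 95% interval from -0.94 to 3.60 (limma adjusted p = 0.374). HSPA1A had a log2 fold change of 1.19 (95% interval 0.08 to 2.29, limma adjusted p = 0.113) and HSPA1B one of 1.29 (0.02 to 2.56, limma adjusted p = 0.131). These values rested on single treatments, since without either library of a treatment the other no longer bears on this comparison. With 1,20(OH)2D3, unlike the other treatments, the 3 genes were lower under the VDR-KD label, by log2 ratios of -3.58, -0.79 and -1.02. Without the VDR-WT library with 1,20(OH)2D3 the log2 fold changes were 2.56, 1.68 and 1.87 and all 3 genes passed the test (limma adjusted p = 0.0465, 0.047 and 0.0497). Without the VDR-KD library with 1,20(OH)2D3 those of HSPA6 and HSPA1A were again 2.56 and 1.68 and both passed (limma adjusted p = 0.0471 and 0.0479). Without the VDR-KD library with 20(OH)D3 those of the 3 genes were 0.32, 0.62 and 0.64, and the same without the VDR-WT library with it.

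HSPA8, HSP90AA1 and BAG3 had log2 fold changes of 0.19, 0.13 and 0.04 between the labels, with limma adjusted p = 0.136, 0.228 and 0.716. With quantile normalization HSPA8 (log2 fold change 0.31, limma adjusted p = 0.00948) and HSP90AA1 (0.23, limma adjusted p = 0.0237) passed the test as well.

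Each compound was tested against ethanol over both labels, with the label as a term in the same fit. All 4 comparisons share the 2 ethanol libraries. With 1,25(OH)2D3 only DNAJB1 among the 10 members passed, where 1.99% of all tested entries did in either direction. Members past an unadjusted p of 0.05 by limma numbered 5, against 16.5% of all tested entries. The members had been chosen with earlier results known. Of the 7 melanocytic markers S100B (log2 fold change 1.33), MITF (0.78) and MLANA (0.58) were also higher with 1,25(OH)2D3, and their part in the chaperone values was not tested. DNAJB1 was higher, at 141 and 103 FPKM against 94.7 and 73.7 FPKM with ethanol, a log2 fold change of 0.53 (SE 0.0727, limma adjusted p = 0.0118). Without any 1 of the 4 libraries compared, that p was between 0.0516 and 0.16, with the log2 fold change between 0.49 and 0.58.

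The inducible HSP70 genes had the largest differences of the set with 1,25(OH)2D3 and did not pass after adjustment over all entries. The log2 fold change was -5.20 for HSPA6 (95% interval -8.79 to -1.61, limma adjusted p = 0.15), -3.16 for HSPA1A (-4.90 to -1.41, limma adjusted p = 0.0837) and -3.24 for HSPA1B (-5.24 to -1.24, limma adjusted p = 0.115). Both labels showed the lower value. Of 18 alternative fits, HSPA1A passed only in the 2 that left out a library with 20(OH)D3, and HSPA6 and HSPA1B passed in none. Over these fits the log2 fold change was between -5.56 and -3.71 for HSPA6. It was between -3.58 and -2.74 for HSPA1A and between -3.66 and -2.82 for HSPA1B. The remaining 6 members had log2 fold changes from -0.16 for DNAJA4 to 0.34 for HSPA4L, of which HSPA4L was past an unadjusted p of 0.05 (limma adjusted p = 0.222).

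For the remaining compounds, in the order 1,20(OH)2D3, 25(OH)D3, then 20(OH)D3, limma called 0 members, where 0.0204%, 0% and 0% of all tested entries passed. At an unadjusted p under 0.05 there were 3, 1 and 1 members, against 12.5%, 8.03% and 14.2% of all tested entries. The log2 fold changes of HSPA6, HSPA1A and HSPA1B were -3.15, -1.72 and -1.94 with 1,20(OH)2D3 (limma adjusted p = 0.455, 0.406 and 0.412). They were 0.60, 0.59 and 0.41 with 25(OH)D3 and -1.84, -0.95 and -1.33 with 20(OH)D3 (limma adjusted p = 0.638, 0.611 and 0.53). Those with 20(OH)D3 rested on the VDR-WT library and were 0.70, 0.47 and 0.31 without it. Those with 1,20(OH)2D3 rested on the VDR-KD library, since without it they were -0.08, -0.48 and -0.50, and without the VDR-WT library -6.23, -2.96 and -3.38. DNAJB1 had log2 fold changes of 0.19, 0.22 and 0.21 with these 3 compounds, none past the test.

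**Figure D4:**
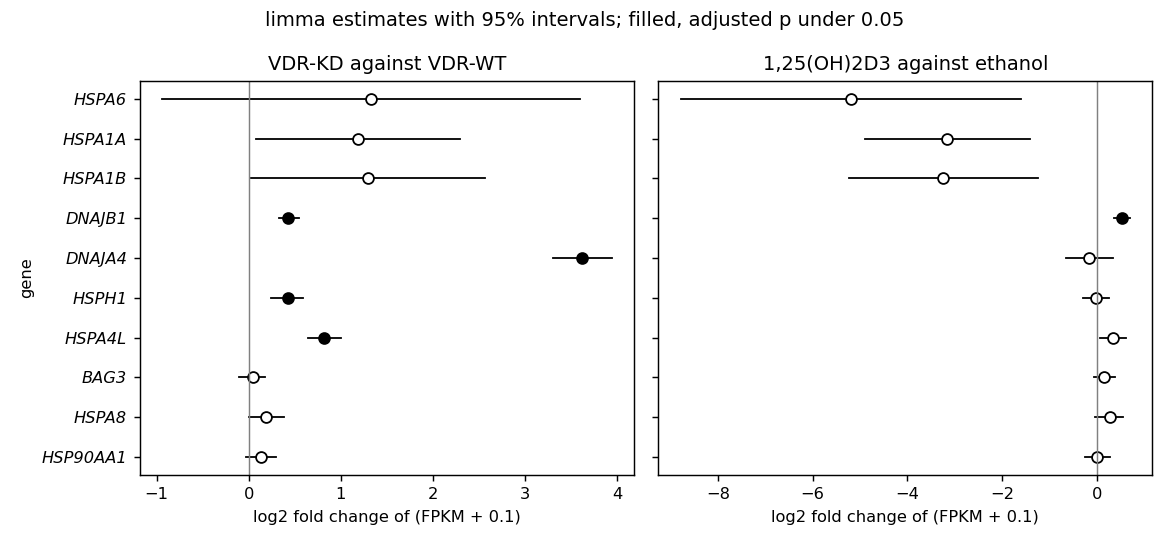
Log2 fold changes of FPKM plus 0.1 from limma for the 10 genes with 95% intervals, for the VDR-KD against the VDR-WT label (left) and 1,25(OH)2D3 against ethanol (right); filled points passed an adjusted p of 0.05. DNAJA4 at 3.62, HSPA4L, DNAJB1 and HSPH1 are filled on the left and DNAJB1 at 0.53 on the right, and the 3 inducible genes have the widest intervals in both.

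The compounds were compared with each other at their shared dose and time in 6 pairs, with p-values adjusted over all tested entries within each pair. 1,25(OH)2D3 and 25(OH)D3 differ by the hydroxyl at carbon 1. HSPA1A was lower with 1,25(OH)2D3 than with 25(OH)D3, at 9.57 and 6.65 FPKM against 165 and 71.1 FPKM, a log2 fold change of -3.75 (SE 0.762, 95% interval -5.49 to -2.0, limma adjusted p = 0.0412). It was the only member called in this pair, where 3.06% of all tested entries were, and the call was lost without any 1 of the libraries with ethanol, 1,25(OH)2D3 or 25(OH)D3 (limma adjusted p = 0.0989 to 0.303). HSPA6 and HSPA1B had log2 fold changes of -5.80 and -3.64 in the same pair (limma adjusted p = 0.101 and 0.0724).

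1,20(OH)2D3 and 20(OH)D3 differ by the same hydroxyl. The log2 fold change of HSPA1A between them was -0.77 with a 95% interval from -2.51 to 0.98, which leaves differences in either direction possible, and 0 members were called where 0.034% of all tested entries were. 1,25(OH)2D3 and 1,20(OH)2D3 differ in the place of the side-chain hydroxyl, and HSPA1A had a log2 fold change of -1.44 between them (95% interval -3.18 to 0.30, 0 members called, background 0.259%). 25(OH)D3 and 20(OH)D3 differ in the same way, with 1.54 for HSPA1A (-0.21 to 3.28, 0 members called, background 0%). The 2 pairs that differ in both places called 0 members as well. HSPA1A had -2.21 for 1,25(OH)2D3 against 20(OH)D3 (-3.95 to -0.46, background 2.03%) and -2.31 for 1,20(OH)2D3 against 25(OH)D3 (-4.05 to -0.56, background 0.0204%). At an unadjusted p under 0.05 limma passed 0 members for 1,20(OH)2D3 against 20(OH)D3, 1 for 1,25(OH)2D3 against 1,20(OH)2D3, 0 for 25(OH)D3 against 20(OH)D3, and 3 and 5 in the last pairs, where 7.31%, 9.99%, 6.6%, 15.3% and 9.91% of all tested entries did.

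What the additive fit leaves unexplained was greatest for the inducible genes. The residual SD on the log2 scale was 2.26 for HSPA6, 1.10 for HSPA1A and 1.26 for HSPA1B, against a median of 0.17 over all tested entries, and 0.728% of them had a larger one than HSPA6. For HSPA6 the residuals were largest with 1,20(OH)2D3, at -2.46 under the VDR-KD label and 2.46 under the VDR-WT label, and with 20(OH)D3, at 2.03 and -2.03. DNAJB1 had a residual SD of 0.04 and HSPA4L and BAG3 one of 0.06 each, so their label and treatment differences added up almost exactly.

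The genes most like HSPA6 over the 10 libraries were named by Pearson's r of log2 of FPKM plus 0.1, among single protein-coding entries with a mean of at least 5 FPKM. Since the libraries fall into 4 low and 6 high ones, r over all 10 mostly reflects that gap. It is given as a description with no p, beside r within the 6 libraries in which HSPA6 was at 6.71 FPKM or above. Within these 6, HSPA6 was at 31.6 FPKM or above under the VDR-KD label and at 15.7 FPKM or below under the VDR-WT label. So r within the 6 holds a gap between the labels. The libraries share 2 sets of cells and were alike in depth. HSPA1B had an r of 0.98 (Spearman's rho 0.96, 0.99 within the 6) and HSPA1A one of 0.97 (rho 0.94, 1.00 within the 6). The closest gene was ARC, an immediate early gene known from synapses, with an r of 0.99 (rho 0.98, 0.99 within the 6). ARC was at 21.9, 0.804, 0.269, 26.5 and 25.2 FPKM under the VDR-KD label and at 6.07, 0.104, 3.15, 10.4 and 0.207 FPKM under the VDR-WT label, so it was under 1 FPKM in the same 4 libraries as HSPA6.

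The others of the 10 nearest genes were JUN, EGR1, CXCL8, ASB6, CRYAB, FN1 and ANTXR2, with r from 0.94 to 0.97. Within the 6 libraries with high HSPA6, r was 0.96, 0.90, 0.94, 0.96, 0.76, 0.82 and 0.59 for them in this order. As they and ARC were picked by r over all 10 libraries, low levels in the same 4 libraries are part of that choice. JUN and EGR1 are immediate early transcription factors, CXCL8 is a chemokine, and CRYAB is a small heat shock protein that holds unfolded proteins. CRYAB was at 25.3, 5.60, 3.55, 34.0 and 36.1 FPKM under the VDR-KD label and at 11.2, 2.92, 10.2, 45.2 and 3.56 FPKM under the VDR-WT label. Its 4 lowest libraries, at 5.60 FPKM or less, were those of HSPA6, and its highest was the VDR-WT library with 25(OH)D3. JUN was at no more than 2.66 FPKM in these 4 libraries and at 4.62 to 17.9 FPKM in the others, and EGR1 at no more than 16.7 FPKM and at 22.1 to 39.8 FPKM. Over all tested entries 45 had an r above 0.9 and 6 one under -0.9.

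Among the other members no r with HSPA6 over the 10 libraries was above 0.25, the value of DNAJA4. It was -0.57 for HSPA8, -0.26 for HSP90AA1, -0.25 for BAG3, -0.21 for DNAJB1, -0.03 for HSPA4L and 0.08 for HSPH1. Within the 6 libraries with high HSPA6, r was 0.91 for DNAJA4, 0.89 for DNAJB1, 0.82 for HSPA4L and 0.66 for HSPH1, all genes called higher under the VDR-KD label. It was 0.13 for HSPA8, -0.06 for BAG3 and -0.08 for HSP90AA1. The VDR-KD label holds 3 of these 6 libraries, with HSPA6 at 31.6 to 44.5 FPKM. In those of the VDR-WT label HSPA6 was at 6.71 to 15.7 FPKM. These r thus also carry a gap between the labels, whose part within the 6 was not tested. With the mean of each label removed first, r over the 10 libraries was 0.99 for HSPA1B and 0.98 for HSPA1A. It was then -0.79 for HSPA8, -0.77 for HSPA4L, -0.67 for DNAJB1, -0.40 for HSP90AA1, -0.32 for BAG3, -0.31 for HSPH1 and 0.00 for DNAJA4. Without the 2 libraries farthest from the median of HSPA6, r was 0.99 for both HSPA1A and HSPA1B and -0.50 for HSPA8.

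**Figure D5:**
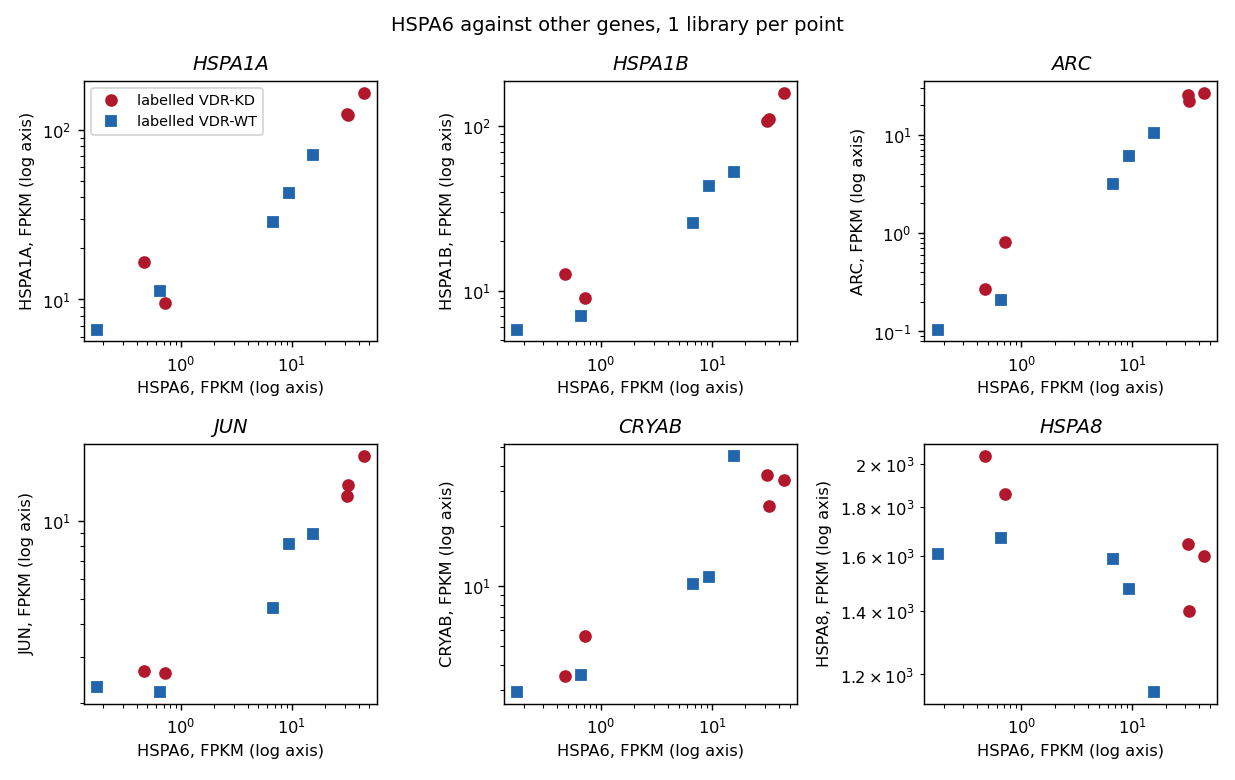
Level of HSPA6 against HSPA1A, HSPA1B, ARC, JUN, CRYAB and HSPA8 in FPKM on log axes, 1 library per point, red circles for the VDR-KD label and blue squares for the VDR-WT label. The 4 libraries with HSPA6 under 1 FPKM sit apart from the 6 others, low for the first 5 genes and not for HSPA8, where r was -0.57.

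The other genes of the protein folding network were described by lists, which were chosen with earlier results known. Their counts between the labels stand beside 13.1% higher and 9.68% lower calls, and 36.5% past an unadjusted p of 0.05, over all tested entries. For the VDR-KD against the VDR-WT label, 5 of 12 tested chaperones of the endoplasmic reticulum were higher and 0 lower, with a median log2 fold change of 0.19. They were led by SDF2L1, a partner of the HSP70 of that compartment (1.26, limma adjusted p = 0.000653), PDIA4, a disulfide isomerase (0.37), HYOU1, an HSP110 relative (0.35), and DNAJC3, a J-domain protein (0.28). Of 14 tested genes of HSP90 and its cochaperones 4 were higher and 0 lower (median 0.10), namely ST13 at 0.28, FKBP5 at 0.23, CHORDC1 at 0.22 and UNC45A at 0.21. Of 13 tested entries of other J-domain proteins, DNAJA2 (0.41) and DNAJC2 (0.29) were higher and DNAJB2 (-0.36) and DNAJC8 (-0.18) lower. HSPA2, a testis-enriched HSP70, was higher (1.17, limma adjusted p = 0.00664), 1 of 6 tested members of the remaining HSP70 family. The 6 mitochondrial chaperones and the 7 subunits of the chaperonin TRiC that were tested had 0 calls by limma, with medians of 0.03 and -0.06 and 2 and 2 genes past an unadjusted p of 0.05.

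HSF1 itself was at 46.9 ± 3.57 FPKM (SD, n = 5) under the VDR-KD label and at 38.1 ± 7.37 FPKM (SD, n = 5) under the VDR-WT label, with a log2 fold change of 0.32 that did not pass (limma adjusted p = 0.109). IER5, which is known to promote HSF1 activity, was higher (0.45, limma adjusted p = 0.0316), the only call among 6 tested genes of the HSF family and its regulators. Of 11 other HSF1 targets, SERPINH1, the collagen chaperone (-0.57), and SQSTM1, an autophagy receptor (-0.35), were lower and none was higher. Of 4 tested small heat shock proteins HSPB11 was lower (-0.33), and CRYAB had a log2 fold change of 0.70 that did not pass (limma adjusted p = 0.416). Of 16 immediate early genes, NR4A3 (-0.60) and EGR3 (-0.44) were lower and none was higher.

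With 1,25(OH)2D3 against ethanol, limma called no gene in the lists of the HSF family, the remaining HSP70 family, other J-domain proteins, small heat shock proteins, HSP90 cochaperones, mitochondrial and endoplasmic reticulum chaperones, TRiC and other HSF1 targets, 8 of whose 79 tested entries were past an unadjusted p of 0.05, as were 16.5% of all tested entries. The share of all tested entries that limma called in this comparison was 1.99%. Of the 16 immediate early genes IER3, a stress-responsive survival gene, was lower (log2 fold change -1.36, limma adjusted p = 0.0131). The median of the list was -0.69, where that of all tested entries was -0.003. In this list 12 of the 16 were past an unadjusted p of 0.05 by limma, against the same 16.5%, and 5 of the 16 had a positive log2 fold change. IER3 was at 34.2 and 48.4 FPKM with 1,25(OH)2D3 against 96.0 and 114 FPKM with ethanol. With 1,20(OH)2D3, with 25(OH)D3 and with 20(OH)D3, limma called 0 of the 95 tested entries of all these lists against ethanol. Over all tested entries it called 0.0204%, 0% and 0%. Past an unadjusted p of 0.05 were 20, 7 and 9 of the 95, as were 12.5%, 8.03% and 14.2% of all tested entries.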

How the data were processed

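RNA of WM164 cells was sequenced in 10 libraries, 1 for each of 2 genotype labels and 5 treatments. The deposited FPKM were made by the authors with STAR 2.7.1a, Cufflinks 2.2.1 and Cuffdiff on GRCh38, per the labels. The gene annotation, the treatment of reads that map to several places and the number of reads are not stated in the sources at hand, nor is whether RNA of the triplicates mentioned in the notes was pooled. A treatment label of 2(OH)D3 was read as 20(OH)D3, which is how the title of that library has it.

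Values were used as deposited. Entries with a mean of at least 0.5 FPKM were fitted with limma 3.58.1 in R 4.3.3 on log2 of FPKM plus 0.1 (lmFit, eBayes with a trend), with genotype label and treatment as terms, all 10 libraries and 4 residual degrees of freedom. Adding 0.1 understates changes of low genes. Adjustment was by Benjamini-Hochberg over all tested entries. In simulated data for VDR-KD against VDR-WT (14689 genes, 200 changed), the fit recovered 83% of the 200 genes at a log2 change of 1 and 98.5% at one of 3, and for 1,25(OH)2D3 against ethanol 52% and 94.5%. The changed genes were drawn at random, with independent noise of each gene's own residual SD. That SD had a median of 0.17 but was 2.26 for HSPA6, 1.10 for HSPA1A and 1.26 for HSPA1B. These shares therefore do not apply to the inducible genes.

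The members and lists were chosen with earlier results of these data known. All members are named, from each other list up to 4 called genes with the largest change in a comparison, and the 10 genes most like HSPA6. Entries that merge several protein-coding genes were left out of the lists. The permutation test planned for the likeness to HSPA6 was not used, since the libraries fall into separate low and high sets. Alternatives changed the added constant, the filter, the scaling, the trend, the block and the libraries included. Genes were placed with GENCODE 29, and the remaining steps used Python 3.11.15, pandas 2.3.3, numpy 2.4.6, scipy 1.17.1 and matplotlib 3.10.9.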

Additional observations from a re-analysis of the deposited data

Results flagged for a closer look

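Among the 5 libraries of a label, the lowest or highest value stood far from the others in 2 cases, by a ratio of the gap to the range that chance exceeds in about 1 of 20 groups, and 20 groups were examined. BAG3 under the VDR-KD label was at 18.6 FPKM with ethanol, below the 4 libraries with compounds, and HSP90AA1 under the VDR-KD label was at 1086 FPKM with 1,20(OH)2D3, above the others. The low values of the inducible HSP70 genes were not singled out this way, since each label held 2 of them.

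For 3 genes a compound went with opposite signs under the labels, each by at least 0.1 on the log2 scale of FPKM plus 0.1. The differences were not tested, since each rests on 1 library per condition. DNAJA4 with 20(OH)D3 against ethanol had a log2 ratio of -0.34 under the VDR-KD label and 0.22 under the VDR-WT label. With 25(OH)D3 against ethanol, HSPH1 had 0.18 under the VDR-KD label and -0.33 under the VDR-WT label, and HSPA8 had 0.19 and -0.36.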

How the results depend on the processing

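The 4 calls between the labels, DNAJA4, HSPA4L, DNAJB1 and HSPH1, held in all 18 alternatives each. The number of members called there was 4 to 7 when 1 library was left out. With 1,25(OH)2D3 against ethanol 1 member was called, and 0 without the trend or with only the 4 libraries compared, and 0 to 2 with 1 library left out. For 1,25(OH)2D3 against 25(OH)D3 it was 1, and 0 without a filter or without the trend, and 0 to 2 with 1 library left out. The call of DNAJB1 with 1,25(OH)2D3 was lost without the trend (limma adjusted p = 0.0923) and with only the 4 libraries compared (0.273), and that of HSPA1A against 25(OH)D3 without a filter (0.138) and without the trend (0.155). The causes of these changes, other than fewer libraries or more genes tested, were not tested.

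Signs turned for uncalled values. HSP90AA1 with 1,25(OH)2D3 had a log2 fold change of -0.09 with quantile normalization, and -0.07 to 0.09 when 1 library was left out. HSPH1 with 1,25(OH)2D3 was between -0.15 and 0.10 when 1 library was left out. HSPA6, HSPA1A and HSPA1B with 20(OH)D3 ranged from -4.38 to 0.70, from -2.37 to 0.47 and from -2.96 to 0.31, the lower ends without the VDR-KD library with it and the upper ones without that of VDR-WT. HSPA1A for 1,20(OH)2D3 against 20(OH)D3 ranged from -2.19 without the VDR-WT library with 20(OH)D3 to 0.65 without the VDR-KD library with it, and the sign turned without either VDR-KD library of the pair. The number of genes called over the whole table moved by over 1.5 times in many settings, for 1,25(OH)2D3 against ethanol from 293 down to 0 with only the 4 libraries compared. The calls of the 3 inducible genes in 1 library against 1 library did not change with 1 in place of 0.1 added or with median ratio scaling. Between the labels, the fit without treatment as a block also called 4 members. Depth bears most on the low values of HSPA6.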
